A study of Mus musculus with 12 samples.

Results

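Fibroblast identity is described here through 10 genes that are widely used to define or recognise fibroblasts. They were 6 genes of transcription factors (Twist1, Twist2, Prrx1, Snai1, Snai2 and Tcf21) and 4 genes of surface or marker proteins (Pdgfra, Thy1, S100a4 and Ddr2), taken by name from the 12393 genes that the array measures through probe sets with 1 symbol. The 10 genes were chosen with earlier results of these data known, so their counts beside a background of all probe sets carry no test. The 10 genes had 14 of 22626 probe sets, of which Prrx1 had 4 and Pdgfra 2. All values were reported and none was filtered for low signal. Mouse embryonic fibroblasts (MEFs) of C57BL/6 origin were first given a lentivirus carrying M2rtTA, a transactivator switched on by doxycycline, and were then divided into 4 groups of 3 arrays. TF group 1 received viruses for GATA4, TBX5 and MEF2C (3 factors). TF group 2 received these and Mesp1 and SMARCD3 (5 factors), and TF group 3 received those 5 with MYOCD and SRF (7 factors). The negative control carried M2rtTA with none of the factors. All 4 groups, the negative control included, were kept for 7 days in doxycycline, and by the study's methods also in valproic acid and added serum. All delivered coding sequences were human except that of Mesp1, which was mouse, and none of the 10 genes was delivered. RNA came from the whole culture without sorting, so cells that took up few or no viruses may be part of each TF group.

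Twist1, Twist2 and Tcf21 encode basic helix-loop-helix (bHLH) proteins, which pair with E proteins to bind a short DNA element, the E-box. Snai1 and Snai2 encode zinc finger repressors that bind E-boxes of epithelial genes, and Prrx1 encodes a homeodomain protein of limb and craniofacial mesenchyme. Pdgfra is a receptor tyrosine kinase for platelet-derived growth factor (PDGF), Ddr2 is a receptor for fibrillar collagen, Thy1 is a glycolipid-anchored surface protein, and S100a4, also called fibroblast-specific protein, binds calcium. S100a4 and Thy1 are also made by blood cells.

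The values are 1 linear signal per probe set and array, in array units. Trimmed of 2% at each end, the mean signal was 500.2 on every array, replicates correlated with r between 0.960 and 0.966, and the small number of arrays limits the precision. The 3 arrays of a group are biological replicates by their labels, and the p-values measure the spread between these arrays. Whether the 3 cultures of a group came from separate isolates of MEFs is not stated. The p-values may thus leave out the spread between isolates. Below, a probe set was called lower or higher where the limma fit over all 12 arrays gave p under 0.05 after Benjamini-Hochberg adjustment and a change of more than 1.5-fold (0.58 on the log2 scale). None of 11 fibroblast markers, among them Vim, Col1a1, Col3a1 and Dcn, had a group mean below a signal of 32 in any group. That check cannot decide whether the label fibroblast is right, because only 20.4% to 24.2% of probe sets were so dim. None of 6 smooth muscle markers had a group mean below 32 either. The summed signal of the fibroblast markers was 96134.5 to 102415.3 in TF group 1, 78814.7 to 83136.4 in TF group 2, 78618.8 to 81583.8 in TF group 3 and 79095.7 to 82676.4 in the negative control. Single markers changed in both directions: 0, 1 and 2 were called lower and 2, 1 and 0 higher in TF groups 1, 2 and 3. Of all genes, 8.93%, 10.1% and 9.84% were called lower and 15.1%, 15.3% and 14.7% higher, so these counts of 11 lie near the background. Lum was called higher in TF group 1 (mean signal 5139.5) and lower in TF group 3 (485.1), against 1474.6 in the negative control. Col6a1 was called lower in TF groups 2 and 3 (2421.0 and 2476.6, against 4423.2). Dcn was called higher in TF groups 1 and 2 (3926.1 and 3132.8, against 1841.4). Of 8 macrophage markers, the summed signal was 438.5 to 478.5, 576.1 to 617.4 and 565.6 to 600.2 in TF groups 1, 2 and 3, and 547.0 to 609.2 in the negative control. A group mean was below 32 for Ptprc and Itgam in TF group 1, Ptprc and Lyz2 in TF group 2, Aif1 and Itgam in TF group 3 and Itgam in the negative control. One of them, Lyz2, was called lower in TF groups 2 and 3 (mean signals 27.8 and 38.5, against 98.1 in the negative control). Of 6 T lymphocyte markers, 4, 4 and 3 lay below 32 in TF groups 1, 2 and 3, and 3 in the negative control. The part of blood cells in the values of S100a4 and Thy1 was not tested.

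The genes lie on 8 chromosomes in GRCm38.p6, and Twist2 (1:91801461-91848034), Prrx1 (1:163245119-163315145) and Ddr2 (1:169972307-170110836) share chromosome 1. Promoter sequence from RefSeq (GRCm38.p6) was matched by symbol for 8 of the 10 genes. Below are the 250 bases before a start site of the 4 genes with called probe sets that the results turn on. Those of Twist1, the near relative of Twist2, are given too. For Prrx1, Pdgfra (gene range 5:75151322-75198206) and Ddr2 (window 1:170088945-170089194) the window lies inside the range of the gene. The start site used for these genes is thus not the outermost one. The sequences are written on the gene's strand, 5′ to 3′, and capitals mark every match to a motif that was searched on both strands.
Twist2, chr1:91801211-91801460, plus strand: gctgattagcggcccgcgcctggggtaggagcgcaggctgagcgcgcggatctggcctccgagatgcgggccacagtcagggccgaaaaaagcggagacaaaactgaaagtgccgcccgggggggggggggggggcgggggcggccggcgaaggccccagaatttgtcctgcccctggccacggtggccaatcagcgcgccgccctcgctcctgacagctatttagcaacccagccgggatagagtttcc
Twist1, chr12:33957421-33957670, plus strand: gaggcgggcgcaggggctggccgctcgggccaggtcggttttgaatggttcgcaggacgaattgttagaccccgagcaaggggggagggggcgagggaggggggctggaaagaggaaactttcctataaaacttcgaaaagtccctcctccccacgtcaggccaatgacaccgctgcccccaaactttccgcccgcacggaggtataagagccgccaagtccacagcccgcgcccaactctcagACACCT
Prrx1, chr1:163313651-163313900, minus strand: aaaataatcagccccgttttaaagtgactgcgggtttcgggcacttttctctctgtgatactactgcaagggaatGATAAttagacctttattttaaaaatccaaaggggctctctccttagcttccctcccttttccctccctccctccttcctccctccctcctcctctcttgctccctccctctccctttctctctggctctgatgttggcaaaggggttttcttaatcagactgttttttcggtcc
Snai1, chr2:167537945-167538194, plus strand: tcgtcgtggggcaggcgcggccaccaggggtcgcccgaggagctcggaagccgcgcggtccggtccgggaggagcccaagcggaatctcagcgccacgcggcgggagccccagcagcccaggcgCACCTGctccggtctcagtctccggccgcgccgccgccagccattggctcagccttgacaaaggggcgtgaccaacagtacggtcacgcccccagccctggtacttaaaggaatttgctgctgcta
Pdgfra, chr5:75152001-75152250, plus strand: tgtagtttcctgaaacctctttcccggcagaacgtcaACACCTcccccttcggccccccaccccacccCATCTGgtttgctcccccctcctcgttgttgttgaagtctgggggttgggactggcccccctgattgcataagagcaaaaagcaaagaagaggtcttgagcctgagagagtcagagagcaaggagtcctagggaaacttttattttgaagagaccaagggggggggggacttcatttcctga
The motifs were the E-box (CANNTG), its Snail form (CAGGTG, a subset of the former), a GATA element (GATAA), a T-box element (AGGTGT, which can overlap the Snail form), the CArG box bound by SRF and the MEF2 site. An E-box was present in 2 of the 8 windows (Snai1 and Pdgfra), against 66.2% of the 32851 windows of the same length in the table. The Snail form was present in 1 (Snai1, against 17.2% of all), a GATA element in 2 (Prrx1 and Tcf21, against 22.6%), and a T-box element in 2 (Twist1 and Pdgfra, against 11.8%). The CArG box and the MEF2 site matched 0 of the 8 windows (1.47% and 2.92% of all windows). These matches describe letters in a window and are not measured binding sites.

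Against the negative control, the called changes of these genes were all decreases, and as deposited they involved more probe sets in TF groups 2 and 3 than in TF group 1. Under spike scaling, which sets each array to the mean log2 signal of its added poly-A control transcripts, that order of counts turned round. The counts were then 14, 13 and 12 of 14 in TF groups 1, 2 and 3. Of all probe sets, 54.5%, 44.2% and 47.4% were lower there. The sizes of the changes did not all turn with the counts. Under that scaling the log2 changes were -0.89, -0.96 and -1.35 for Twist1 and -1.21, -1.24 and -1.38 for Thy1, but -0.95, -0.52 and -0.59 for Ddr2. As deposited, 4 of 14 probe sets were called lower in TF group 1 (background: 9.06% of all probe sets lower and 13.6% higher). In TF group 2 the count was 9 of 14 (background 9.98% lower and 13.7% higher), and in TF group 3 it was also 9 of 14 (background 9.36% lower and 13.6% higher). None of the 14 was called higher in any of the 3 comparisons, and log2 changes above 0 were seen only for Twist1 and Pdgfra in TF group 1 and for Ddr2 in TF groups 2 and 3. The median log2 change of the 14 probe sets was -0.30, -0.84 and -1.0 in TF groups 1, 2 and 3, beside 0.06, 0.05 and 0.05 over all probe sets. By the brightest probe set of each gene, 3, 5 and 6 of the 10 genes were called lower (background 8.93%, 10.1% and 9.84% of genes lower, and 15.1%, 15.3% and 14.7% higher). All of the 14 probe sets but those of Tcf21 and the dimmer one of Pdgfra were brighter than the median probe set. The background includes dim probe sets, and a background of like signal was not counted. The 3 comparisons share the arrays of the negative control. In RNA from whole cultures, fewer cells of a type and less RNA per cell cannot be told apart.

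**Figure D1:**
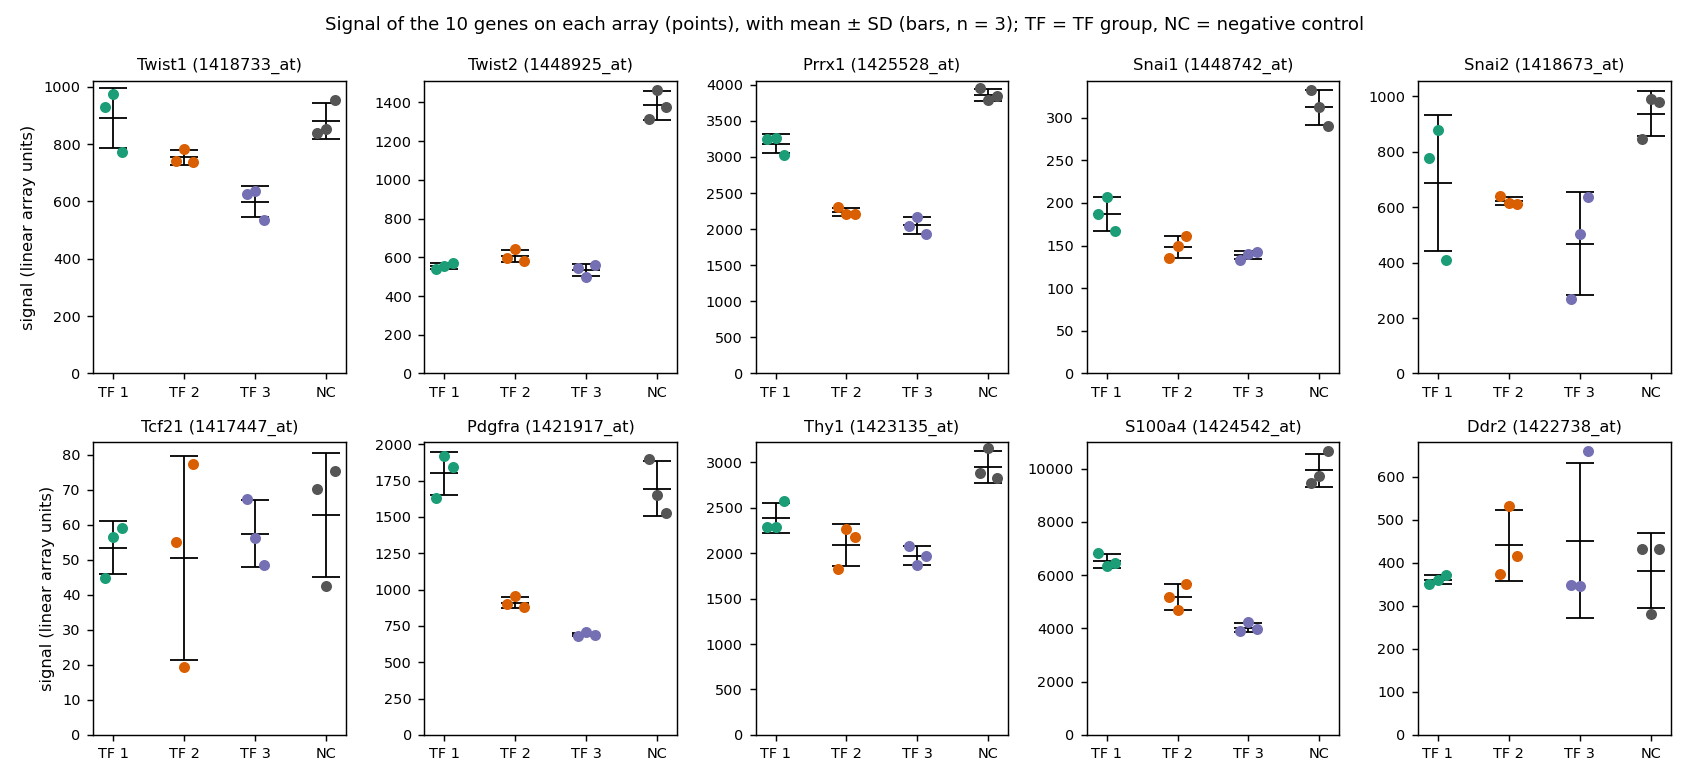
Linear signal of the brightest probe set of each of the 10 genes (y axis, array units, from 0) in TF groups 1, 2 and 3 and the negative control (x axis). Points are single arrays and bars are mean ± SD (n = 3). Twist2, Snai1, Prrx1, S100a4 and Thy1 lie below every negative control array in all 3 TF groups. Pdgfra, Twist1 and Snai2 do so in TF groups 2 and 3, and for Tcf21 and Ddr2 each TF group overlaps the negative control. How many of all probe sets lie apart in this way was not counted.

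Twist2 was the member that was lower to a like degree in all 3 TF groups. Its relative Twist1 was not called in any of them as deposited. Twist2, a bHLH repressor of mesenchyme and dermis, had signals of 537.1, 556.7 and 569.2 in TF group 1, 594.1, 642.0 and 582.2 in TF group 2, 544.3, 498.5 and 560.0 in TF group 3, against 1316.0, 1462.4 and 1376.2 in the negative control. No TF array came near the negative control arrays. Its decrease was 2.5-fold, 2.28-fold and 2.59-fold in TF groups 1, 2 and 3 (log2 changes -1.32, -1.19 and -1.37, SE 0.07, largest adjusted p 9.88e-07). Between TF groups its log2 differences were 0.13, -0.18 and -0.05 (TF group 2 versus 1, 3 versus 2 and 3 versus 1), none of which was called, with 95% intervals from -0.34 to 0.28.

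Twist1, a bHLH factor of cranial mesoderm and neural crest, had signals of 928.6, 974.4 and 774.3 in TF group 1, 741.7, 783.4 and 736.8 in TF group 2, 625.8, 635.5 and 536.4 in TF group 3, against 839.0, 851.7 and 953.4 in the negative control. TF group 1 overlapped the negative control, whereas all arrays of TF groups 2 and 3 lay below it. The log2 changes were 0.01, -0.22 and -0.56 (SE 0.10). That of TF group 3 had an adjusted p of 0.00188 but a fold of 1.47, under the threshold. It passed with the arrays centred on their median (-0.67) and without negative control replicate 1 (-0.59), TF group 3 replicate 1 (-0.59) or TF group 3 replicate 2 (-0.60). With spike scaling, Twist1 was called lower in all 3 TF groups (-0.89, -0.96 and -1.35). Within each array, the log2 ratio of Twist2 over Twist1 was -0.81 to -0.44, -0.34 to -0.29 and -0.35 to 0.06 in TF groups 1, 2 and 3, against 0.53 to 0.78 in the negative control. The change of Twist2 was thus more negative than that of Twist1 by -1.33, -0.97 and -0.82 on the log2 scale, with no overlap between groups, and the exact two-sided permutation p was 0.1 in each case, the smallest that 3 arrays against 3 can give.

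Snai1 was called lower in all 3 TF groups, and Snai2 in TF group 3, a call that was lost when single arrays were left out. Snai1, the Snail repressor of E-cadherin, had signals of 186.6, 206.5 and 167.1 in TF group 1, 135.2, 149.0 and 161.3 in TF group 2, 133.6, 140.6 and 142.1 in TF group 3, against 332.4, 312.8 and 290.5 in the negative control. Every TF array was below every negative control array. The decrease was 1.67-fold, 2.1-fold and 2.24-fold (log2 changes -0.74, -1.07 and -1.17, SE 0.10, adjusted p 2.03e-04, 1.64e-05 and 1.02e-05). TF group 3 was also below TF group 1 on all arrays (log2 change -0.42, adjusted p 0.0185), a difference under the fold threshold.

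Snai2, the Slug repressor, had uneven replicates. Its signals were 777.5, 877.4 and 408.7 in TF group 1, 639.8, 615.9 and 611.9 in TF group 2, 267.7, 501.7 and 636.6 in TF group 3, against 845.4, 989.7 and 978.5 in the negative control. One array of TF group 1 was low and one overlapped the negative control, while TF groups 2 and 3 lay wholly below it. The log2 changes were -0.52, -0.59 and -1.09 (SE 0.34, adjusted p 0.273, 0.211 and 0.0294). The call in TF group 3 was lost in a fit of the 2 groups alone (log2 change -1.09, adjusted p 0.0615), without TF group 3 replicate 1 (-0.73, adjusted p 0.088) and without negative control replicate 1, 2 or 3 (-1.16, -1.05 and -1.05, adjusted p 0.0507, 0.0764 and 0.0751). The change in TF group 2 was called in a fit of the 2 groups alone (adjusted p 0.00604). With spike scaling, Snai2 was called lower in TF groups 1 and 2 too (-1.42 and -1.33, adjusted p 0.0122 and 0.0198). The changes of Snai1 and Snai2 differed by -0.23, -0.48 and -0.08 on the log2 scale in TF groups 1, 2 and 3 (exact two-sided permutation p 0.6, 0.1 and 0.8, smallest possible 0.1).

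Prrx1 showed a stepped pattern at all 4 of its probe sets, with lower signals in TF groups 2 and 3 than in TF group 1. At the brightest one (1425528_at) the signals were 3247.0, 3266.7 and 3027.5 in TF group 1, 2301.6, 2202.5 and 2206.2 in TF group 2, 2042.4, 2173.9 and 1935.1 in TF group 3, against 3950.2, 3785.6 and 3848.6 in the negative control. No array of a TF group overlapped the negative control, and no array of TF group 2 overlapped TF group 1. The log2 changes against the negative control were -0.28, -0.79 and -0.91 (SE 0.06, adjusted p 0.00475, 6.17e-06 and 2.51e-06), of which those of TF groups 2 and 3 were called, as 1.73-fold and 1.89-fold decreases.

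The 4 probe sets of Prrx1 differed in the size of the change. At 1432129_a_at the signals were 554.1, 533.6 and 509.8 in TF group 1, 354.1, 344.1 and 337.1 in TF group 2, 348.6, 324.3 and 369.5 in TF group 3, against 1093.3, 928.6 and 1060.8 in the negative control. This was the only Prrx1 probe set called in TF group 1 (1.93-fold lower, adjusted p 1.12e-05), and the decrease was 2.97-fold and 2.95-fold in TF groups 2 and 3. At 1425526_a_at the log2 changes were -0.45, -1.19 and -1.16, and at 1425527_at they were -0.19, -0.72 and -0.78, called in TF groups 2 and 3 for both. With spike scaling, 1425526_a_at (-1.35), 1425527_at (-1.09) and 1425528_at (-1.18) were called lower in TF group 1 too. The 4 probe sets correlated with r between 0.91 and 0.98 over the 12 arrays, which share the group differences. Which transcripts of Prrx1 each probe set detects was not used here.

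Tcf21, a bHLH factor of the epicardium and of cardiac fibroblast progenitors, was dim throughout. Its signals were 44.8, 56.4 and 59.1 in TF group 1, 55, 19.4 and 77.2 in TF group 2, 67.4, 56.3 and 48.5 in TF group 3, against 70.3, 42.6 and 75.4 in the negative control. The groups overlapped, and one array of TF group 2 was below 32. The log2 changes were -0.20, -0.49 and -0.10 with an SE of 0.45, so the 95% interval in TF group 3 ran from -1.11 to 0.91. Changes of up to about 1 on the log2 scale were thus not detectable. With spike scaling, Tcf21 was called lower in TF groups 1 and 2 (-1.10 and -1.22, adjusted p 0.0387 and 0.0292).

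Among the surface and marker genes, Pdgfra separated TF groups 2 and 3 from TF group 1. At the brighter probe set (1421917_at) this receptor had signals of 1633.0, 1919.8 and 1846.0 in TF group 1, 898.8, 952.4 and 876.8 in TF group 2, 681.8, 704.5 and 686.3 in TF group 3, against 1899.3, 1652.5 and 1527.4 in the negative control. TF group 1 overlapped the negative control, and the arrays of TF group 2 lay between those of TF groups 1 and 3 without overlap. The log2 changes were 0.09, -0.89 and -1.29 (SE 0.09, adjusted p 0.484, 3.86e-05 and 3.61e-06), so that the decrease was 1.86-fold for TF group 2 and 2.44-fold for TF group 3. In TF group 1 the sign depended on the scaling, with -0.04 for arrays centred on their median and -0.81, which was called, under spike scaling.

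The second Pdgfra probe set (1421916_at) was dim, with signals of 96.1, 81.5 and 71.4 in TF group 1, 32.4, 37.2 and 68.2 in TF group 2, 58.5, 46.5 and 63.7 in TF group 3, against 122.6, 68 and 102.4 in the negative control. It was called lower in TF group 2 (log2 change -1.12, SE 0.30, adjusted p 0.0139), where 1 array overlapped the negative control, and its log2 change of -0.77 in TF group 3 missed the threshold (adjusted p 0.0724). The call in TF group 2 was lost in a fit of the 2 groups alone (log2 change -1.12, adjusted p 0.0683) and without negative control replicate 1 (-0.94, adjusted p 0.052), TF group 2 replicate 1 (-0.91, adjusted p 0.0536) or TF group 2 replicate 2 (-1.01, adjusted p 0.0508). The change in TF group 3 was called without negative control replicate 2 (-1.01) or TF group 2 replicate 3 (-0.77), after centring on the median (-0.88) and with quantile normalization (-0.92). That in TF group 2 versus TF group 1 was called without TF group 2 replicate 3 (-1.25). With spike scaling, this probe set was called lower in TF groups 1 and 3 (-1.10 and -1.56).

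S100a4 was called lower in each TF group, by a larger fold in each successive one. Its signals were 6835.3, 6337.8 and 6454.1 in TF group 1, 5176.4, 4693.4 and 5682.2 in TF group 2, 3895.5, 4230.8 and 3972.8 in TF group 3, against 9451.9, 9737.7 and 10646.1 in the negative control. No 2 groups overlapped. The decrease was 1.52-fold, 1.92-fold and 2.46-fold (log2 changes -0.60, -0.94 and -1.30, SE 0.08, adjusted p 2.8e-04, 1.36e-05 and 1.78e-06). The call in TF group 1 fell under the fold threshold without negative control replicate 3 (-0.55) or TF group 1 replicate 2 (-0.58).

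Thy1 lay below the negative control on every TF array, by less than the fold threshold in the signals as deposited. With spike scaling it was called lower in all 3 TF groups (log2 changes -1.21, -1.24 and -1.38). Its signals were 2290.7, 2287.1 and 2576.0 in TF group 1, 1828.8, 2264.0 and 2173.9 in TF group 2, 2080.8, 1869.4 and 1967.8 in TF group 3, against 2884.1, 3154.5 and 2824.2 in the negative control. The log2 changes were -0.31, -0.50 and -0.58 (SE 0.09), with adjusted p of 0.027, 0.00196 and 8.56e-04. With the arrays centred on their median, those of TF groups 2 and 3 passed the fold threshold too (-0.61 and -0.70), and that of TF group 3 also did so without negative control replicate 1 (-0.60), negative control replicate 3 (-0.61) or TF group 3 replicate 1 (-0.62).

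Ddr2 was not called in any comparison of the signals as deposited. Its signals were 351.3, 360.4 and 371.5 in TF group 1, 375.0, 533.1 and 415.4 in TF group 2, 348.2, 347.3 and 660.8 in TF group 3, against 432.4, 281.1 and 431.4 in the negative control. One array of TF group 3 was far above the other two, and all 3 TF groups overlapped the negative control. The log2 changes were -0.05, 0.22 and 0.20 (SE 0.27, adjusted p 0.905, 0.569 and 0.609), with 95% intervals of -0.66 to 0.55, -0.38 to 0.83 and -0.40 to 0.81, and spike scaling gave -0.95 in TF group 1 (adjusted p 0.0138, called lower) and -0.52 and -0.59 in TF groups 2 and 3, not called.

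**Figure D2:**
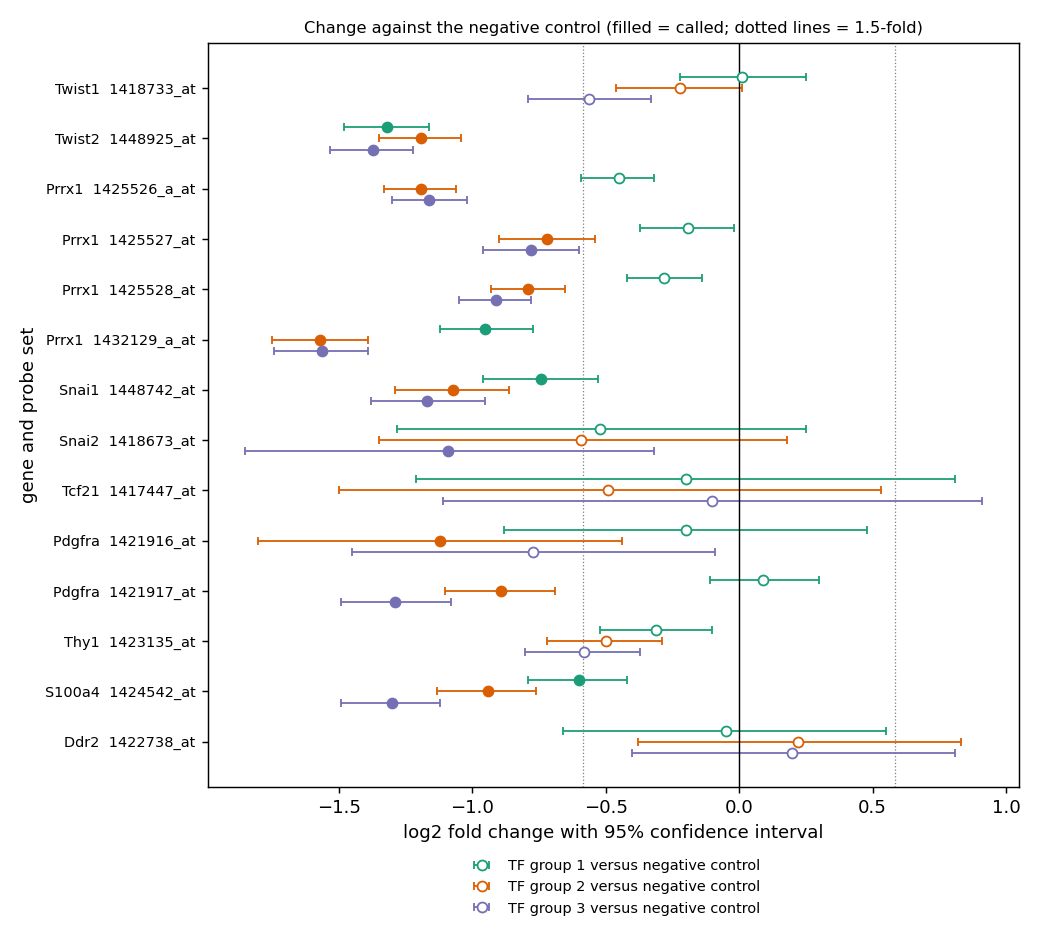
Log2 fold change (x axis, with 95% confidence interval) of each of the 14 probe sets (y axis) in TF groups 1, 2 and 3 against the negative control, n = 3 arrays per group. Filled points were called and dotted lines mark a fold of 1.5. All filled points are decreases, from -0.60 for S100a4 in TF group 1 to -1.57 for Prrx1 (1432129_a_at) in TF group 2, and no filled point changed sign under another scaling.

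Between the TF groups, the differences of these genes lay mainly between TF group 1 and the other two. In TF group 2 versus TF group 1, 3 of 14 probe sets were called lower (background 1.57%), namely Pdgfra (1421917_at, 1.98-fold, adjusted p 2.85e-04) and Prrx1 (1425526_a_at, 1.67-fold, and 1432129_a_at, 1.54-fold). In TF group 3 versus TF group 1, 5 of 14 were called lower (background 2.62%): Pdgfra (1421917_at, 2.6-fold, adjusted p 2.6e-05), S100a4 (1.62-fold, adjusted p 6.1e-04) and Prrx1 at 3 probe sets (1.53-fold to 1.63-fold). In TF group 3 versus TF group 2, 0 of 14 were called in either direction (background 1.39% lower and 2.18% higher). In that comparison S100a4 (log2 change -0.36, adjusted p 0.0281) and Pdgfra (1421917_at, -0.40, adjusted p 0.0284) had adjusted p under 0.05 with a fold below the threshold, and the unadjusted p was under 0.05 for 4 probe sets, these and those of Twist1 (0.00993) and Twist2 (0.0271). An unmoderated linear model with unadjusted p called 0 as well. None of the 14 was called higher in TF group 2 versus TF group 1 or TF group 3 versus TF group 1 (background 1.7% and 3.04% higher), shares at which 0 of 14 is near the background. With single arrays left out, further probe sets passed the thresholds. Twist1 did so in TF group 3 versus TF group 1 without TF group 1 replicate 3 (-0.67) or TF group 3 replicate 1 (-0.61) or 2 (-0.62). Prrx1 (1425527_at) did so in TF group 2 versus TF group 1 without TF group 2 replicate 2 (-0.59), and in TF group 3 versus TF group 1 without TF group 1 replicate 2 (-0.60) or 3 (-0.61) or TF group 3 replicate 1 (-0.62). Spike scaling kept 1 call in each of the first 2, that of Pdgfra.

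**Figure D3:**
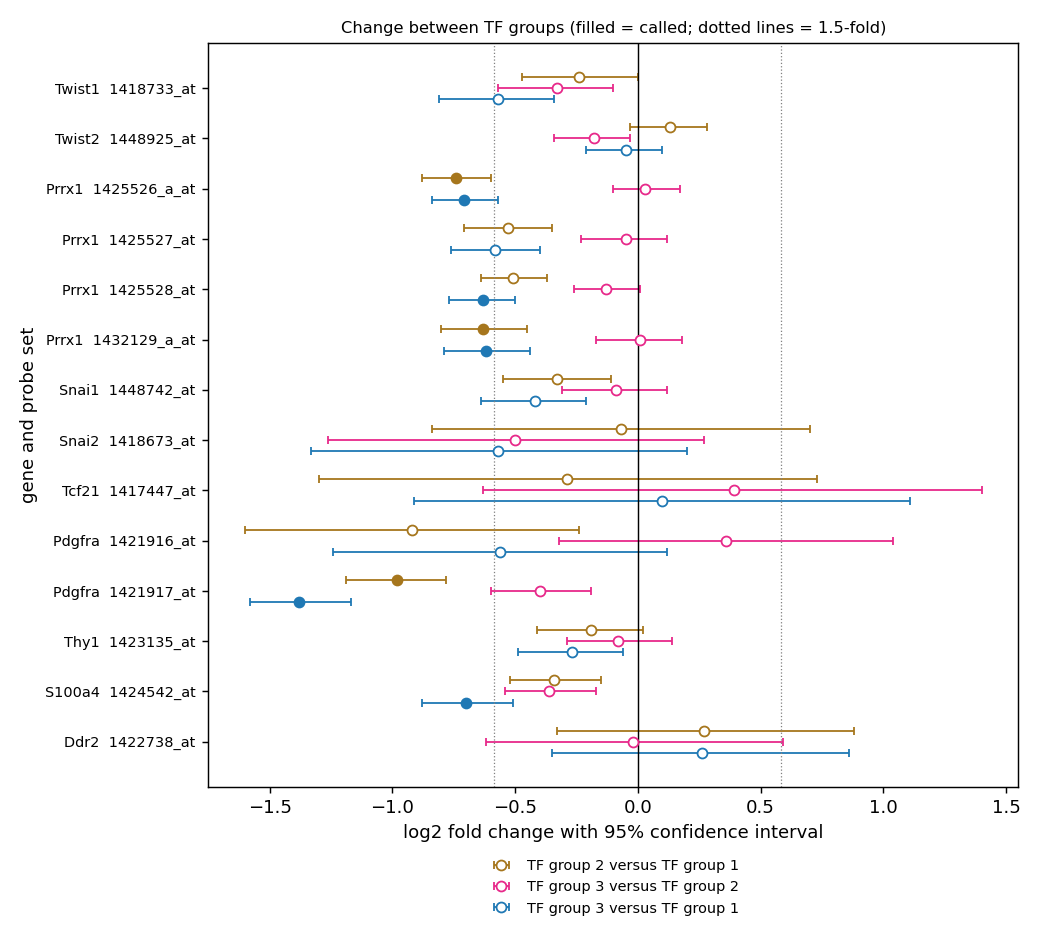
Log2 fold change (x axis, with 95% confidence interval) of each of the 14 probe sets (y axis) between TF groups, n = 3 arrays per group. Filled points were called and dotted lines mark a fold of 1.5. The filled points are Pdgfra (1421917_at), Prrx1 and S100a4, with TF group 1 as the group of higher signal, and no point is filled for TF group 3 versus TF group 2.

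In the signals as deposited, the order of the groups was clear for some genes only. For Pdgfra (1421917_at) the order was TF group 3, TF group 2, then TF group 1 and the negative control, which did not differ beyond their spread. For S100a4 it was TF group 3, TF group 2, TF group 1 and the negative control, where TF groups 2 and 1 also differed by adjusted p (0.0401) with a fold of 1.27. For Prrx1 (1425528_at) TF groups 3 and 2 did not differ beyond the test (log2 change -0.13, adjusted p 0.271). Both were below TF group 1, of which TF group 2 by a fold of 1.42, under the threshold. With spike scaling, TF group 3 versus TF group 1 no longer passed for S100a4 (-0.59, adjusted p 0.245) or Prrx1 (1425528_at, -0.53, adjusted p 0.23). For Snai1 the neighbours TF groups 3 and 2 (adjusted p 0.655) and TF groups 2 and 1 (0.0822) were not separated, and for Twist2, Thy1, Snai2, Tcf21 and Ddr2 no pair of TF groups was. For Twist1, TF group 3 was below TF group 1 (adjusted p 0.00604) with a fold of 1.49, and its other pairs of TF groups were not separated.

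Over the 12 arrays, the gene most like Twist2 in its log2 signal, among 7119 other genes with a mean log2 signal of at least 7, was Ncaph (r = 0.992), which encodes a condensin subunit. Rps25, a ribosomal protein gene, had r = 0.992, and Mad2l1, a spindle checkpoint gene, had r = 0.991. Ncaph had log2 changes of -2.06, -1.95 and -2.11 and Mad2l1 of -2.35, -2.37 and -2.45 in TF groups 1, 2 and 3. Of 8 genes of cycling cells (among them Mki67, Top2a and Cdk1), 8 were called lower in each TF group, with a summed signal of 1760.5 to 2009.5, 1366.9 to 1490.8 and 1639.1 to 1966.1 in TF groups 1, 2 and 3, against 13705.0 to 13893.8 in the negative control. The part of these cells in the decrease of Twist2 and of the other members was not tested.

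The other members had other nearest genes. Pdgfra was most like Rgs10 (r = 0.984), a regulator of G protein signalling, Eps8 (0.967) and Ugdh (0.964). Prrx1 was most like Zfp521 (0.985), a zinc finger gene, whose log2 changes of -0.28, -1.19 and -1.35 had the same step after TF group 1, Grb10 (0.985) and Lrrc42 (0.982). Snai1 was most like Spry1 (0.984), a feedback inhibitor of receptor tyrosine kinase signalling, Sema3a (0.983) and Slc1a6 (0.976). S100a4 was most like the tetraspanin gene Cd9 (0.986), the Prrx1 relative Prrx2 (0.983) and Emp1 (0.982). Thy1 was most like Dlk1 (0.951), Crip1 (0.950) and Cyth3 (0.947), and Twist1 most like Ctbs (0.932), Thbs2 (0.924) and Sp1 (0.923). The highest r was 0.911 (Pmvk) for Snai2, 0.785 (Evl) for Tcf21 and 0.774 (Nfs1) for Ddr2, the genes with uneven replicates. These values describe arrays that share 4 group means, and carry no test.

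The genes around the members were counted in 8 lists by their brightest probe sets, beside a background of 8.93%, 10.1% and 9.84% of genes called lower and 15.1%, 15.3% and 14.7% higher in TF groups 1, 2 and 3. Of 45 list calls of higher, 38 were kept with centring on the median, 39 with quantile normalization and 12 with spike scaling. Of 54 of lower, 54, 52 and 54 were kept.

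The partners and inhibitors of the bHLH members were measured through 7 genes. Of these, 3, 3 and 3 were called lower and 1, 0 and 0 higher in TF groups 1, 2 and 3, with list medians of -0.32, -0.45 and -0.55. The genes called lower were inhibitors of the Id family, which bind E proteins without DNA contact. Id4 was 4.42-fold, 4.15-fold and 3.86-fold lower in TF groups 1, 2 and 3, Id2 was 2.16-fold, 2.38-fold and 2.14-fold lower, and Id1 was 1.65-fold, 2.05-fold and 2.18-fold lower. Id3 changed by -0.32, -0.45 and -0.48 on the log2 scale, less than the fold threshold. Of the E proteins, Tcf4 was 1.83-fold higher in TF group 1 (log2 change -0.02 with spike scaling), Tcf12 had log2 changes of -0.00, -0.01 and -0.08, and Tcf3 of 0.10, -0.32 and -0.55 (adjusted p 0.453, 0.0168 and 9.28e-04), under the fold threshold. In TF group 3, Tcf3 was called lower after centring on the median (-0.66) and with quantile normalization (-0.59), and in all 3 TF groups with spike scaling (-0.80, -1.06 and -1.34).

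Of 21 other mesenchymal transcription factors, 6, 6 and 4 were called lower and 5, 4 and 3 higher in TF groups 1, 2 and 3 (list medians 0.17, 0.01 and 0.00). Meox2, a homeobox gene of somite and muscle development, was 5.63-fold lower in TF group 1 and at least 6.72-fold lower in TF groups 2 and 3, where its mean signal was below 32. In these lists, at least marks a fold against a signal of 32. Hmga2, a chromatin protein of embryonic cells, was 2-fold, 2.26-fold and 2.93-fold lower, and Osr1 was 1.73-fold, 2.42-fold and 2.44-fold lower. Zeb2, which like Snai1 represses epithelial genes, was 1.61-fold and 1.81-fold lower in TF groups 1 and 2. Its relative Zeb1 had log2 changes of -0.14, 0.22 and 0.24. Prrx2 was 1.65-fold and 1.88-fold lower in TF groups 2 and 3. Sox9, a regulator of cartilage, was 2.22-fold, 2.36-fold and 2.05-fold higher. In TF group 1, Osr2 was higher by at least 2.07-fold. Wt1, a gene of the epicardium, was 1.63-fold, 2.43-fold and 2.1-fold higher and Msx2 was 1.6-fold, 1.89-fold and 1.98-fold higher, and in TF group 1 both turned to -0.20 and -0.22 on the log2 scale with spike scaling.

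Epithelial genes known as targets of Snail and Twist proteins were called about as often as all genes. Of 19 measured, 1, 1 and 0 were called lower and 4, 3 and 4 higher in TF groups 1, 2 and 3 (list medians 0.29, 0.28 and 0.26), and 8 of them had a mean below 32. Dsp, a desmosome gene that cardiac muscle also makes, had signals at least 55.5, 68.7 and 69.3 times those of the negative control in TF groups 1, 2 and 3. Krt18 was 4.46-fold, 5.08-fold and 3.04-fold higher, and Pkp2, also a desmosome gene of cardiac muscle, was 2.22-fold higher in TF group 3. Krt19 was 2.24-fold and 2.73-fold lower in TF groups 1 and 2. Cdh1, the E-cadherin gene that Snai1 represses, had mean signals of 31.4, 35.8 and 38.7 in TF groups 1, 2 and 3 and 21.6 in the negative control, and was called higher, by at least 1.19-fold, in TF group 3 (adjusted p 0.0417). That call was lost with centring on the array median, with quantile normalization (log2 change 0.72 in both, against 0.83) and with spike scaling (0.04). Epcam had mean signals of 66.6, 44.3 and 47.8 in TF groups 1, 2 and 3 and 35.4 in the negative control, and was called higher in TF group 1 (1.84-fold, with a log2 change of -0.02 with spike scaling). Of 7 cardiac muscle markers, 4, 4 and 6 were called higher, with a summed signal of 2038.2 to 2201.3, 2363.4 to 2512.1 and 8360.3 to 9535.3 in TF groups 1, 2 and 3, against 245.4 to 368.5 in the negative control, and their part in the desmosome values was not tested.

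The mesenchymal adhesion genes, which stand on the other side of the epithelial switch, had called members in both directions. Of 11 measured, 2, 1 and 0 were called lower and 0, 1 and 1 higher (list medians 0.19, -0.02 and 0.05). Itga5, the fibronectin receptor subunit, was 2.08-fold and 2.16-fold lower in TF groups 1 and 2, and Tnc was 2.1-fold lower in TF group 1. Cdh2, the N-cadherin gene, was 2.01-fold and 1.6-fold higher in TF groups 2 and 3, though its log2 change in TF group 3 was -0.11 with spike scaling. Vim, the mesenchymal intermediate filament, had log2 changes of 0.18, -0.02 and 0.06, and Fn1 of 0.56, 0.25 and 0.41, none called. Those of Fn1 missed only the fold threshold (adjusted p 1.76e-04, 0.0181 and 0.00118), as did that of Vim in TF group 1 (adjusted p 0.0267).

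Around Pdgfra, 11 genes of PDGF ligands, its partner receptor and adaptors were measured, of which 1, 2 and 2 were called lower and 1, 0 and 1 higher (list medians 0.04, 0.16 and 0.26). The partner receptor Pdgfrb was 1.59-fold and 1.51-fold lower in TF groups 2 and 3, and its log2 change in TF group 1 was -0.40 (adjusted p 0.00169), under the fold threshold. The ligand gene Pdgfd was 1.79-fold, 1.68-fold and 1.68-fold lower, and Pdgfa, the main ligand of Pdgfra, had log2 changes of 0.14, 0.56 and 0.34 that were not called. Those of Pdgfa in TF groups 2 and 3 missed only the fold threshold (adjusted p 0.00372 and 0.0444). Pik3r1, a subunit of the lipid kinase that the receptor recruits, was 2.36-fold higher in TF group 1. The adaptor Shc1 was 1.55-fold higher in TF group 3, with a log2 change of -0.16 with spike scaling.

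Of 12 collagen ligands and matrix enzymes around Ddr2, 0, 2 and 1 were called lower and 3, 3 and 2 higher (list medians 0.20, -0.00 and 0.02). Its relative Ddr1, a collagen receptor of epithelial cells, was 2.02-fold, 2.54-fold and 1.68-fold higher in TF groups 1, 2 and 3, but in TF group 3 its log2 change was -0.04 with spike scaling. Col11a1 was 2.41-fold, 1.79-fold and 2.58-fold higher. Mmp2, a gelatinase, was 1.92-fold and 1.8-fold higher in TF groups 1 and 2. Mmp13, the collagenase that Ddr2 is known to induce, was at least 2.19-fold lower in TF groups 2 and 3, and Col2a1 was 3.7-fold lower in TF group 2. Col1a1 had log2 changes of -0.06, -0.39 and -0.26 (adjusted p 0.471, 5.4e-04 and 0.00699), none called, as those of TF groups 2 and 3 were under the fold threshold.

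Of 12 other S100 genes, 0, 1 and 2 were called lower and 1, 1 and 1 higher (list medians -0.13, -0.09 and -0.15), and 5 had a mean below 32. S100a1, the S100 protein of the heart, was 3.65-fold, 3.1-fold and 2.64-fold higher in TF groups 1, 2 and 3. S100a5 was 1.9-fold and 1.76-fold lower in TF groups 2 and 3, and S100a16 was 1.96-fold lower in TF group 3.

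Of 14 other stromal surface markers, 3, 5 and 5 were called lower and 1, 3 and 2 higher (list medians -0.05, -0.04 and 0.21). Fap, the fibroblast activation protease, was 2.4-fold, 2.29-fold and 2.55-fold lower in TF groups 1, 2 and 3. Cspg4, the NG2 proteoglycan of pericytes, was 1.51-fold, 2.07-fold and 1.68-fold lower, Il1r1 was 1.51-fold, 2.05-fold and 2.06-fold lower, and Cd248, or endosialin, was 1.79-fold and 1.94-fold lower in TF groups 2 and 3. The stromal and endothelial marker Cd34 was 4.18-fold and 2.94-fold higher in TF groups 1 and 2. In TF group 2, Alcam was higher by 2.07-fold and Nt5e by at least 3.43-fold, and Mcam and Vcam1 were 2.49-fold and 1.95-fold higher in TF group 3. The median log2 change over all genes was 0.07, 0.06 and 0.05 in TF groups 1, 2 and 3.

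**Figure D4:**
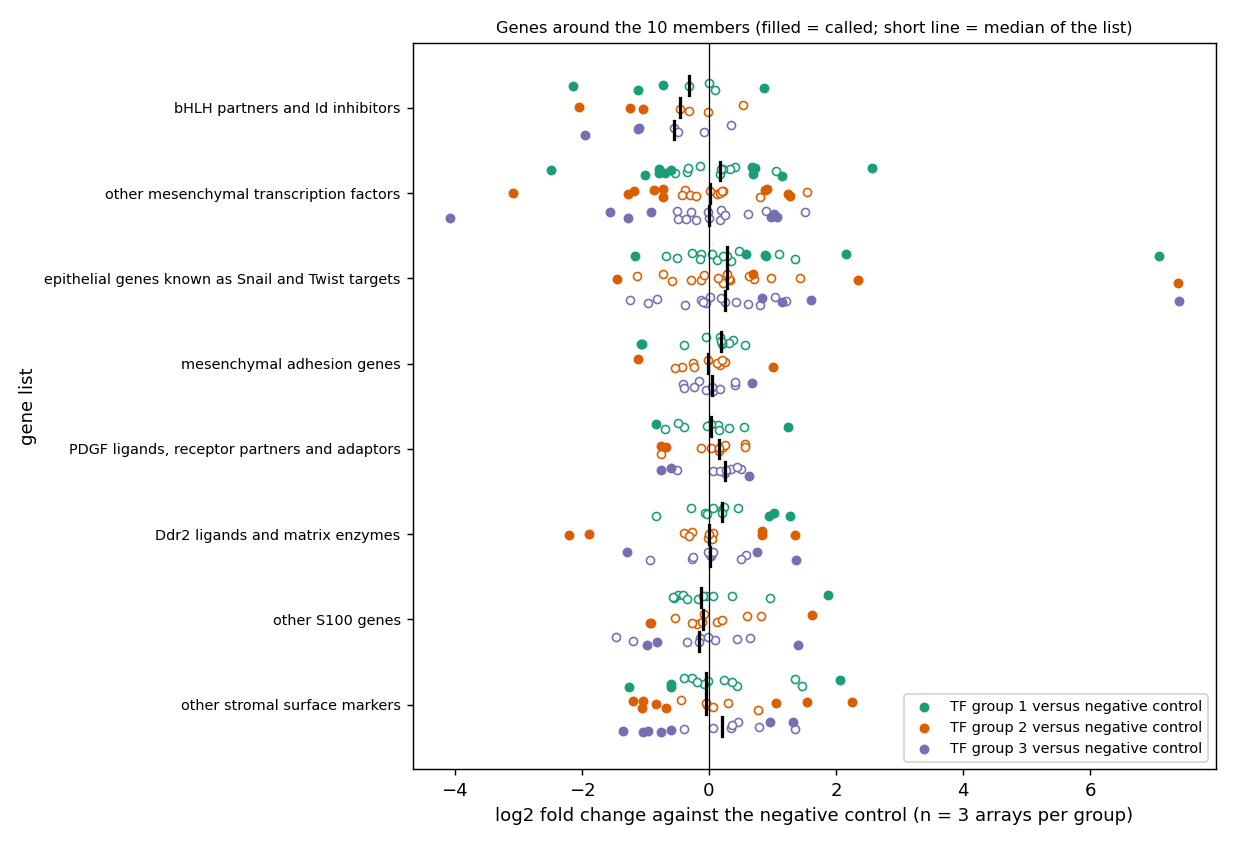
Log2 fold change against the negative control (x axis) of the genes in 8 lists around the 10 genes (y axis), by the brightest probe set, with TF groups 1, 2 and 3 from top to bottom in each list (n = 3 arrays per group). Filled points were called and the short line is the median of a list, between -0.55 and 0.29. With spike scaling, 12 of the 45 filled points above 0 kept their call and 10 fell below 0, while the 54 filled points below 0 kept theirs.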

How the data were processed

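RNA from 12 whole cultures was hybridised to a mouse 3′ expression array. The intensity values were deposited by the authors as 1 linear signal per probe set. RMA and Partek are named by the submitters (no version given), for which log2 values are usual, so how this linear signal was made is unknown. Log2 was taken in R 4.3.3, and 64 control probe sets were left out of the tests. Of 22626 probe sets, 20380 had 1 symbol, 691 several and 1555 none. limma 3.58.1 (lmFit, eBayes) fitted 1 mean per group over the 12 arrays, without a block, in 6 comparisons. p-values were adjusted over all probe sets. The 10 genes and the 8 lists were chosen with earlier results of these data known, as was the dim signal of 32. Named were all 10 genes, up to 4 called genes per list and direction with the largest mean change, with other list members given as values after theirs were seen, and the 3 genes most like each member by Pearson r. Data were simulated from the mean of each probe set over the 12 arrays and its spread within groups (22626 probe sets, 5 simulations). In TF group 1, 200 probe sets were changed by 1 on the log2 scale. The fit of TF group 1 versus negative control recovered 53.4% of changes (86.5% at a mean log2 signal of at least 7), and 3.68% of its calls were false. In the deposited data many more were called (2049 lower and 3088 higher), so these shares may not carry over. Alternatives covered the fit, the scaling, the thresholds and each array left out.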

Additional observations from a re-analysis of the deposited data

Results flagged for a closer look

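The poly-A spikes, bacterial transcripts added to the RNA before labelling and outside the comparisons above, were brighter on arrays of the TF groups than of the negative control. The mean log2 signal of their 24 probe sets was 8.17 to 8.28 in TF group 1, 8.03 to 8.18 in TF group 2 and 8.08 to 8.23 in TF group 3, against 6.99 to 7.79 in the negative control. The TF arrays exceeded the negative control arrays by 0.81 on average (exact two-sided permutation p 0.00455, the smallest that 220 splits can give). All arrays share 1 trimmed mean signal, and the part of this difference in the signals of the 10 genes was not tested beyond the scaling given below.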

How the results depend on the processing

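Of 1932 values of single probe sets under the alternatives, 1820 kept their direction and their side of the thresholds, 54 passed them newly, 20 no longer passed and 38 changed sign, 0 of the last from a call. Scaling to the poly-A spikes moved the median change of all probe sets to -0.84, -0.69 and -0.74 in TF groups 1, 2 and 3, and calls of lower rose to 54.5%, 44.2% and 47.4% of probe sets. There 14, 13 and 12 of the 14 probe sets were called against the negative control, 1 in TF group 2 versus TF group 1 and 1 in TF group 3 versus TF group 1. Centring on the array median turned the split in TF group 1 to 2792 lower and 2352 higher (2049 and 3088 as deposited), in TF group 2 to 2838 and 2574 (2258 and 3111) and in TF group 3 to 2803 and 2451 (2117 and 3078). With no fold threshold, 7 probe sets were called in TF group 1 versus negative control, 6 in TF group 2 versus TF group 1, 2 in TF group 3 versus TF group 2 and 8 in TF group 3 versus TF group 1. The call of Prrx1 (1432129_a_at) in TF groups 2 and 3 versus TF group 1 was lost with 50 added to the signal (-0.56 and -0.55), and in TF group 3 versus TF group 1 also without TF group 3 replicate 2 (-0.57). Same-numbered replicates did not deviate together (18 pairs, r -0.07 to 0.12, 2 over 0.1), and with the replicate block the 6 counts were the same as without it (4, 9 and 9 against the negative control, and 3, 0 and 5 between TF groups). The cause of these shifts was not tested.

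Sign changes of uncalled values were as follows. Twist1 in TF group 1 versus negative control was -0.02 with array weights, -0.12 centred on the median, -0.00 with quantile normalization and -0.89, then called, scaled to the spikes. Pdgfra (1421917_at) in the same comparison was -0.04 centred on the median and -0.81, then called, scaled to the spikes. Under spike scaling Ddr2 was -0.52 and -0.59 in TF groups 2 and 3 versus negative control, Twist2 0.05 in TF group 3 versus TF group 1, Snai2 0.09 in TF group 2 versus TF group 1, and Prrx1 -0.02 (1425526_a_at) and -0.05 (1432129_a_at, -0.00 centred on the median) in TF group 3 versus TF group 2. Leaving out each array in turn, the log2 changes ranged from -0.05 to 0.11 for Twist1 in TF group 1 versus negative control, and in TF group 3 versus TF group 2 from -0.09 to 0.01 (1425527_at) and -0.04 to 0.06 (1432129_a_at) for Prrx1. They ranged from -0.41 to 0.14 for Snai2 in TF group 2 versus TF group 1. For Tcf21 they were -0.90 to 0.10 and -0.36 to 0.06 in TF groups 2 and 3 versus negative control, -0.70 to 0.30 in TF group 2 versus 1, -0.20 to 0.80 in 3 versus 2 and -0.02 to 0.22 in 3 versus 1. For Ddr2 they were -0.26 to 0.05 and -0.11 to 0.36 in TF groups 1 and 3 versus negative control, -0.33 to 0.14 in 3 versus 2 and -0.05 to 0.41 in 3 versus 1. The counts ranged over 3 to 4, 8 to 9 and 9 to 10 against the negative control, and 3 to 4, 0 to 0 and 5 to 7 between TF groups. Tcf21 and Pdgfra (1421916_at) lie near the dim signal of 32, which limits what they show.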
